A study of Mus musculus with 8 samples.

Results

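Genes that prepare DNA for replication and carry it through S phase were read from RNA-seq libraries of mouse mammary basal cells, the outer layer of the gland's epithelium. The cells were sorted by cycle phase: G0, in which they rest without dividing, or G1, in which they grow ahead of DNA synthesis. A fixed list of 49 genes was taken from the 54837 gene identifiers of the deposited count table, and all 49 matched 1 identifier each. In both groups the strain label is C57BL/B6, no treatment was given, and the labels name no genotype, sex, age, sort marker or number of animals. There were 4 libraries per group, 1 of each phase from every run. Whether different runs came from different mice is not stated, so p-values reflect only the spread among these libraries, some of which may be technical.

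A cell can copy its genome once per cycle because origins are licensed in G1 and fired in S phase. The origin recognition complex (the Orc genes) marks origins. Cdc6 and Cdt1 load the MCM2-7 helicase there, and geminin (Gmnn) blocks Cdt1 after S phase has begun. Mcm10, Cdc45 and the GINS proteins turn the loaded helicase on. DNA polymerase alpha with primase starts each strand, Pcna clamps the polymerases to DNA, and Fen1 and Lig1 process and seal Okazaki fragments. Ribonucleotide reductase (Rrm1 and Rrm2), thymidylate synthase (Tyms) and thymidine kinase (Tk1) supply nucleotides. Many of these genes are textbook targets of E2F transcription factors, which the retinoblastoma family holds in check in resting cells. Cells that leave the cycle are known to lose MCM proteins and Cdc6 over time.

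The 8 libraries held 5868728 to 15014104 counts, of which 5175 to 15676 fell on the 49 genes. The basal label was met by its markers: all 10 basal and myoepithelial genes checked had counts in every library, and the mean of the keratin Krt14 was 7999 ± 986 in the G0 libraries and 8270 ± 1030 in the G1 libraries (SD, n = 4), in CPM, the count scaled to library size with edgeR's TMM factors. In the fit with the run as a block 3 of these 10 genes were called higher in G1, the contractile genes Acta2 (0.63 on the log2 scale), Cnn1 (0.55) and Actg2 (0.98), each without overlap between the phases. Markers of other cell types had counts in both phases. The summed level of 10 endothelial genes was 158.6 to 277.4 CPM in G0 and 26.57 to 115.0 CPM in G1, without overlap, and edgeR with the run as a block called 10 of 10 lower in G1. Of 7 fibroblast genes the same fit called 4 lower (Col1a1, Col1a2, Lum and Pi16), with a median log2 fold change of -0.69. Their sum was 206.9 to 883.8 CPM in G0 and 242.3 to 603.2 CPM in G1, with its largest part from Dcn, at 177.9 CPM on average in G0 and 255.3 in G1. Sums ran from 24.76 to 55.21 and from 16.88 to 30.53 CPM over 6 pericyte genes, from 28.57 to 70.93 and from 26.85 to 56.47 CPM over 8 myeloid genes, and from 1.70 to 22.33 and from 1.61 to 5.975 CPM over 8 lymphocyte genes. Luminal genes had counts too, with sums of 54.88 to 203.2 and 43.01 to 112.0 CPM over 8 hormone-sensing genes. Their largest part on average was Ly6a (59.86 CPM in G0, 36.45 in G1). It was the 1 gene of them called in the fit with the run as a block, lower in G1 (adjusted p = 0.00487). Over 9 progenitor genes the sums were 3333 to 4686 and 3613 to 4944 CPM. Most came from Lcn2 (means of 2246 and 2579) and Krt8 (874.3 and 935.9), while Elf5 (1.404 and 0.3841) and Kit (2.109 and 2.152) were low. No gene of these lists was at 0 in all 8 libraries. However, 7 of the 8 lymphocyte genes and 4 of the 8 myeloid genes were at 0 in some library. The part of these cells in the values below was not tested. In RNA from a mixed sort, fewer cells of a type and less RNA per cell cannot be told apart. The G0 library of run 4 stood apart, where 39094 genes had counts and 9379 of them had none elsewhere, while the remaining libraries detected 20836 to 26614 genes. It also held the highest pericyte, myeloid and lymphocyte sums (55.21, 70.93 and 22.33 CPM).

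Promoters of these genes are shown first because E2F words were more frequent in them than in promoters at large. Many members are textbook E2F targets, so this excess is not independent of their choice. The promoters at large were not matched for base composition. RefSeq promoters of 300 bases on GRCm38.p6, from 250 bases before to 50 after a start, were at hand for 39 of the 49 genes. They were searched on both strands for 4 E2F words, TTTCCCGC, TTTGGCGC, TTTCGCGC and TTTGCCGC. At least 1 word stood in a promoter of 14 of 39 members (35.9%), against 704 of 27025 genes in all (2.60%). A gene counted if any of its promoters held a word. By promoter, 14 of 47 of the members held a word (29.8%), against 744 of 32851 in all (2.26%). Of the licensing genes 8 of 13 held one (61.5%), namely Orc1, Orc3, Cdc6, Cdt1, Mcm3, Mcm5, Mcm6 and Mcm7. Of the nucleotide supply and fork genes 3 of 13 did (23.1%), Lig1, Pola1 and Clspn. Of the 5 genes in the nucleotide supply role, Ung included, 0 did. Of 41 other replication genes 11 held a word (26.8%), and of 26 mitosis genes 1 (3.85%). A match is a description of letters and shows no binding.

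One promoter per role is printed, that of the member with the smallest p between phases in the fit with the run as a block, among those with a word, 5′ to 3′ on the gene's strand, with the E2F words in capitals. The helicase activation and nucleotide supply roles had no such promoter. For Lig1, with 3 promoters, and Uhrf1, with 2, the promoter with the most words is printed. Both windows lie past the first annotated base of the gene, at 13277283 for Lig1 and 56303321 for Uhrf1.
Orc3, chr4:34614893-34615192, minus strand: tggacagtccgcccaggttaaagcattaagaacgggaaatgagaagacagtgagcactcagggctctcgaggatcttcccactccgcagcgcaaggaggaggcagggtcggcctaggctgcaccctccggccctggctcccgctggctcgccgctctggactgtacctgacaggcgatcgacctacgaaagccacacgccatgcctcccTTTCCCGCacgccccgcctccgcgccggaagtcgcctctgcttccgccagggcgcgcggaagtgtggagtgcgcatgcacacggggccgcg
Cdt1, chr8:122567765-122568064, plus strand: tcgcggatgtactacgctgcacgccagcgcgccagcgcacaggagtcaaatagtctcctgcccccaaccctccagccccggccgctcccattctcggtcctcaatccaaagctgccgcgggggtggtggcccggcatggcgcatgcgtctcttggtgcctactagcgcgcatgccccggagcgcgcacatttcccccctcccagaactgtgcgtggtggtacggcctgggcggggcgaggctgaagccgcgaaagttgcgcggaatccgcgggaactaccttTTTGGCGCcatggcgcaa
Mcm5, chr8:75109259-75109558, plus strand: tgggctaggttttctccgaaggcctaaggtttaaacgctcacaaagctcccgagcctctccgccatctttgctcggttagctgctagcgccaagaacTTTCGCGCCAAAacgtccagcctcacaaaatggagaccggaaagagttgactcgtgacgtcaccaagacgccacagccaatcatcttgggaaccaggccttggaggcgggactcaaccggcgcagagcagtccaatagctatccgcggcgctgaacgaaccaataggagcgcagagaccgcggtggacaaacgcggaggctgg
Lig1, chr7:13278576-13278875, plus strand: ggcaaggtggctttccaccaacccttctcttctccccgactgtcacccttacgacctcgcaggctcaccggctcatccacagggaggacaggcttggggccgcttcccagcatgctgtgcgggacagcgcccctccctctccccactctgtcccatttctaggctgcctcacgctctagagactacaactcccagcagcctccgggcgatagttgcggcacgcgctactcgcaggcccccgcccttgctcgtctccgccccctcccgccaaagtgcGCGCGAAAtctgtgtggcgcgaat
Uhrf1, chr17:56304063-56304362, plus strand: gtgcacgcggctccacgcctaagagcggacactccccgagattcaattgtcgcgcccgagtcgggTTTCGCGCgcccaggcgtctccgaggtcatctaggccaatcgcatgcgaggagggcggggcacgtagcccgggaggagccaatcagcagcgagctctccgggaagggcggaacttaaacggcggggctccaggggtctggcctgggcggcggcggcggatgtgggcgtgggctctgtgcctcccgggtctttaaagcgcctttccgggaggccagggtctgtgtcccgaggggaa
Dtl, chr1:191575495-191575794, minus strand: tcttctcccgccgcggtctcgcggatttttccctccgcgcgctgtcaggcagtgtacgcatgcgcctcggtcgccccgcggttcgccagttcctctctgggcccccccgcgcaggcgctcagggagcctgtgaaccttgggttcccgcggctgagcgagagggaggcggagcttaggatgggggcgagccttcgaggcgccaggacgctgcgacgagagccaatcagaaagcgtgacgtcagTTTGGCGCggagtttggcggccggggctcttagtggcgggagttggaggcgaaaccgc
The words begin 41 bases before the start in Orc3, 8 before it in Dtl and 185 before it in Uhrf1, and 32 and 26 bases after it in Cdt1 and Lig1. In Mcm5 a pair of words overlap on opposite strands and begin 153 and 149 bases before the start.

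Messenger levels of the 49 genes spanned a wide range in both phases. Levels between genes are compared as CPM per kb of merged exon. Averaged over the 8 libraries, 15 members were at 5 or more, 19 between 1 and 5 and 15 under 1, from 33.7 for Pcna down to 0.0766 for Clspn, the adaptor of the S-phase checkpoint kinase. The filter on low counts passed 42 members, and the 7 it removed were Orc1, Cdc6, Mcm10, Dscc1, Clspn, Exo1 and Rad51ap1, each with 20 or more counts over the 8 libraries together.

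**Figure D1:**
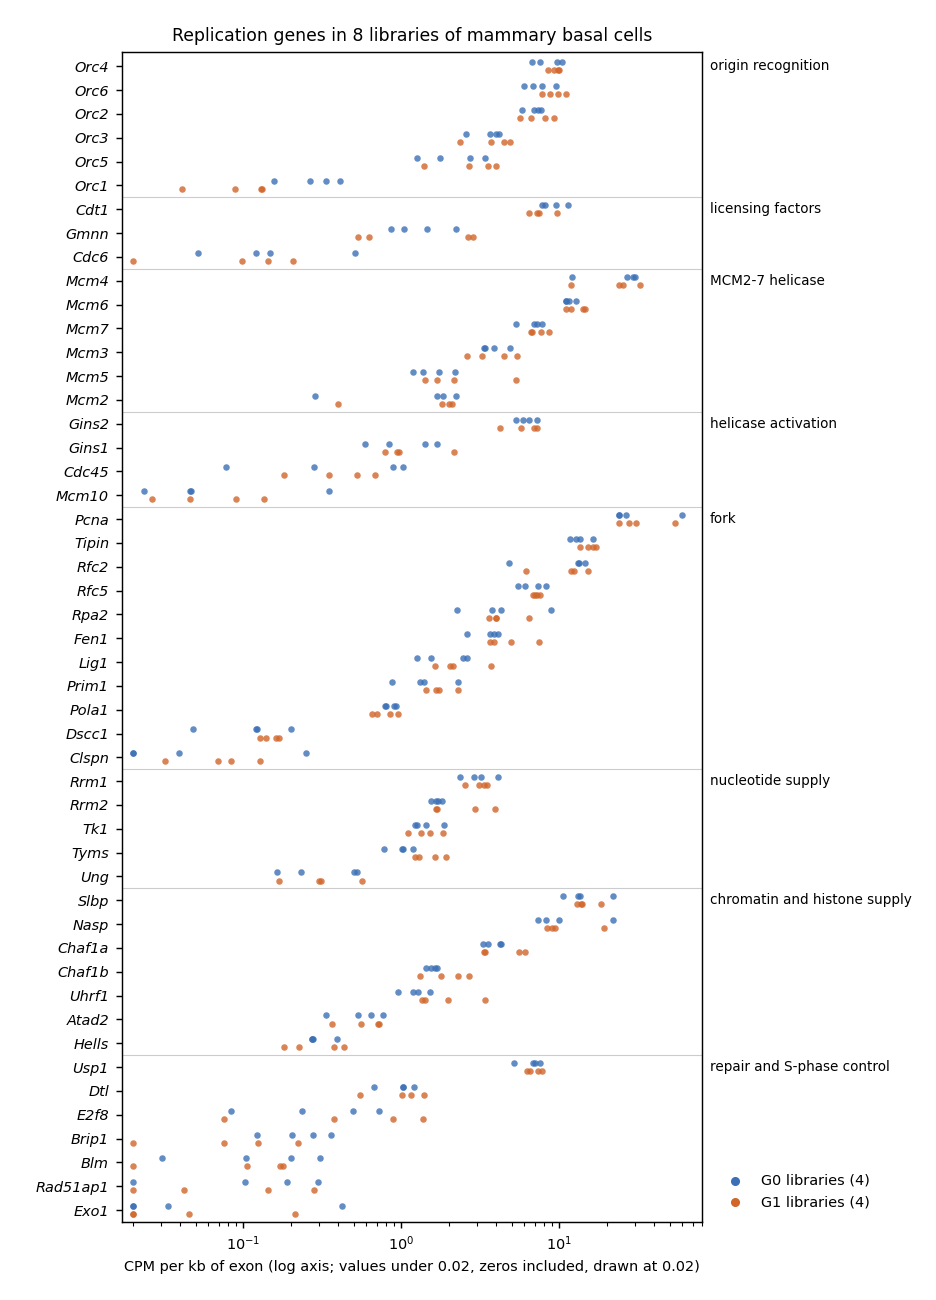
Level of each of the 49 genes in CPM per kb of exon (log axis), by role, with 1 point per library, G0 in blue and G1 in orange; values under 0.02 are drawn at 0.02. Mean levels run from 33.7 for Pcna to 0.0766 for Clspn.

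Setting G1 against G0 addresses which of these genes differ between resting and growing basal cells. No member passed: edgeR's quasi-likelihood test with the phase alone called 0 of 42 tested members in either direction (adjusted p threshold 0.05), and over all 15192 tested genes it called 0% higher and 0% lower. At an unadjusted p under 0.05 there was 1 member, Tyms, and 425 genes in all. DESeq2 and limma-voom also called 0 members, with and without the run in the model. Once the run was added as a replicate block, edgeR called 0.481% of all tested genes higher and 0.764% lower, and again 0 members. In that fit 4 of 42 members had an unadjusted p under 0.05 (9.52%), against 1864 of all tested genes (12.3%). Fold changes in that blocked fit lay within 0.2 of 0 on the log2 scale for 27 of the 42 members, and the median standard error was 0.204. The median log2 fold change over the 42 was 0.07 with the phase alone and 0.08 with the block, against -0.001 and 0.007 over all tested genes.

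Sign and overlap were counted over all 49 members, since they need no filter. In all 4 runs G1 was above G0 for 5 members (Orc5, Orc6, Mcm5, Tyms and Uhrf1) and below it for 3 (Orc1, Cdt1 and Brip1). Among the 20320 genes with 20 or more counts the shares were 9.03% and 10.3%, so 5 and 3 of 49 are near or under the background. The G0 and G1 libraries did not overlap for Tyms, higher in G1, and Orc1, lower in G1, where 0.679% and 1.34% of those 20320 genes did the same. Ratios within runs were taken with a prior count of 2.

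**Figure D2:**
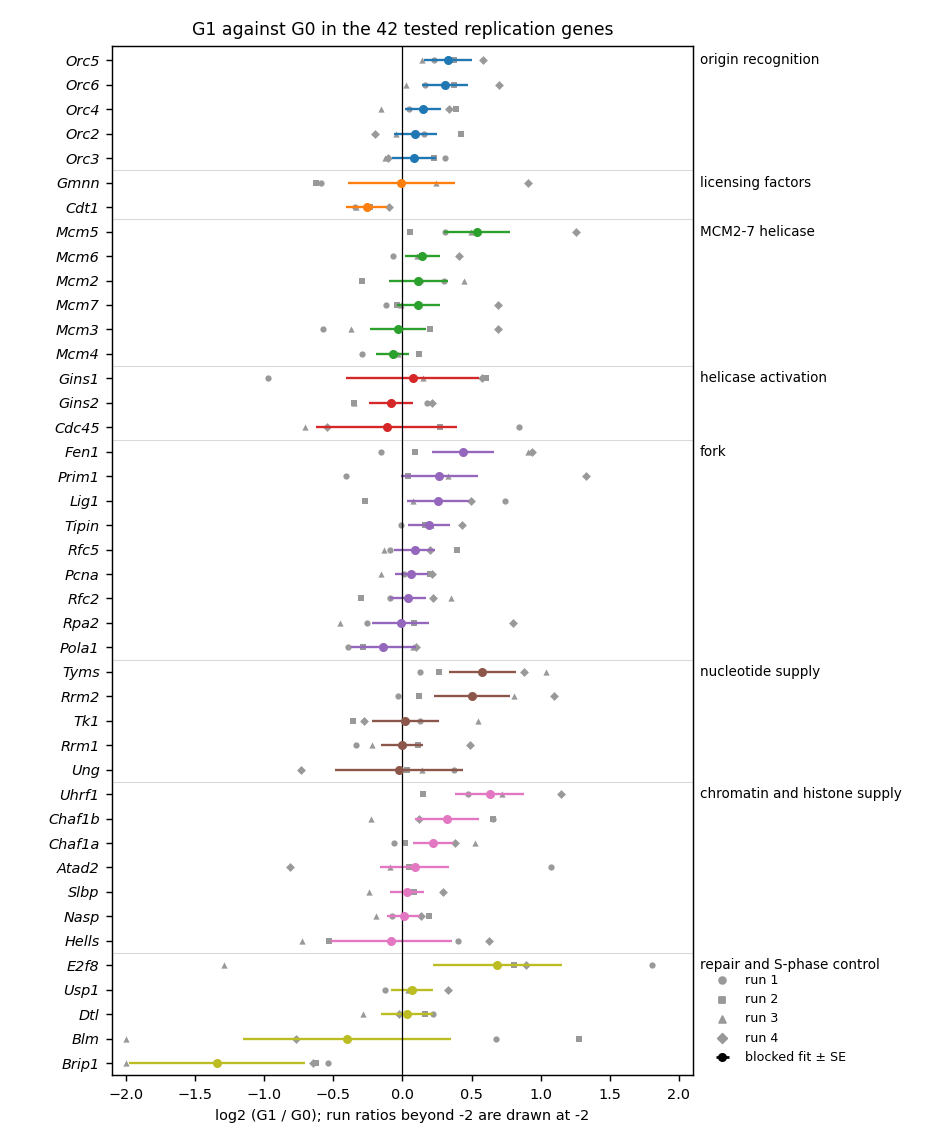
The log2 ratio of G1 to G0 for the 42 tested members, by role, with grey marks for the 4 runs and coloured points for the blocked edgeR fit ± SE; ratios below -2 are drawn at -2. Of the 42 coloured points, 27 lie within 0.2 of 0 and none passed the test.

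Among the origin recognition genes, Orc4 and Orc6 had the highest levels per length, 9.00 and 8.46 CPM per kb, and Orc1, the subunit known to cycle, the lowest at 0.194, a ratio of 46.3 between Orc4 and Orc1. Orc4 stood at 72.3, 56.3, 77.1 and 50.2 CPM in G0 of runs 1 to 4 and at 74.6, 73.7, 69.2 and 63.3 CPM in G1. Its groups overlapped, with a log2 fold change of 0.13 ± 0.18 (SE; adjusted p = 0.9999). Orc6 gave 19.3, 14.8, 23.7 and 16.8 CPM in G0 and 21.7, 19.3, 24.1 and 27.3 CPM in G1, higher in G1 in each run but overlapping, at 0.30 ± 0.21. Orc5 was at 20.9, 16.7, 7.77 and 10.9 CPM in G0 and at 24.5, 21.8, 8.58 and 16.4 CPM in G1. G1 was the higher library in each run, but the groups overlapped (0.34 ± 0.37). Orc2 and Orc3 had 0.11 ± 0.20 and 0.11 ± 0.26.

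Orc1 was lower in G1 in each run, at counts too low for the filter. Orc1 counts in runs 1 to 4 were 6, 13, 13 and 8 in G0 and 2, 6, 3 and 3 in G1. As CPM these are 0.544, 1.16, 0.919 and 1.43 in G0 and 0.142, 0.460, 0.306 and 0.448 in G1. Every G1 value was below every G0 value, and the ratios were -1.15, -1.06, -1.16 and -1.35 on the log2 scale. In an edgeR fit with no low-count filter the log2 fold change was -1.50 ± 1.09 (adjusted p = 0.526), and with the block -1.53 ± 0.91 (adjusted p = 0.816). Orc1 was singled out after its values were seen. On the opposite strand Gm12743 shares 376 exon bases with it, at 0.509 CPM on average against 0.676.

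Of the loading factors, Cdt1 was well above the other two, at 8.45 CPM per kb against 1.53 for Gmnn and 0.162 for Cdc6. Cdt1 stood at 29.8, 35.7, 25.6 and 24.3 CPM in G0 and at 23.5, 30.4, 20.2 and 22.7 CPM in G1. G1 was the lower library in each run, the groups overlapped, and the log2 fold change was -0.25 ± 0.20 (adjusted p = 0.9999; 0.517 with the block). Gmnn, its inhibitor, was at 1.27, 1.52, 3.25 and 2.14 CPM in G0 and 0.779, 0.920, 3.88 and 4.18 CPM in G1, lower in G1 in runs 1 and 2 and higher in runs 3 and 4. Cdc6 held 3, 7, 11 and 15 counts in G0 and 1, 14, 5 and 5 in G1, and its highest level, 2.68 CPM, was in the G0 library of run 4.

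The 6 subunits of the MCM2-7 helicase assemble in equal numbers. Their messenger levels per length differed 15.5-fold, from 23.9 CPM per kb for Mcm4 and 12.2 for Mcm6 to 1.54 for Mcm2. That figure depends on the merged exon length, 3589 bases for Mcm4 and 6956 for Mcm2. In CPM, not divided by length, Mcm4 was 7.21, 8.02, 18.1 and 6.93 times Mcm2 in runs 1 to 4. Mcm4 stood at 105, 107, 43.4 and 95.6 CPM in G0 and at 85.5, 116, 42.5 and 90.8 CPM in G1. Both run 3 libraries were low, the phases overlapped, and the log2 fold change was -0.07 ± 0.33 (-0.07 ± 0.12 with the block). Mcm6 gave 53.8, 59.4, 51.5 and 51.1 CPM in G0 and 51.4, 65.5, 55.5 and 67.8 CPM in G1, overlapping, at 0.15 ± 0.16. Mcm5 was at 6.89, 5.46, 4.73 and 8.76 CPM in G0 and 8.57, 5.67, 6.74 and 21.2 CPM in G1. G1 was higher in each run, by 0.05 to 1.26 on the log2 scale, and the fold change was 0.70 ± 0.42 (adjusted p = 0.9999; 0.54 ± 0.24 with the block, adjusted p = 0.354). Without run 4 the blocked value was 0.28 (adjusted p = 0.882), and without the G1 library of run 4 the value with the phase alone was 0.13. Mcm7, Mcm3 and Mcm2 had 0.12 ± 0.18, 0.02 ± 0.26 and 0.07 ± 0.61.

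The subunits are paralogs, so the length of sequence they share bears on how reads can be assigned. Among the longest GENCODE transcripts of the 6 genes the longest identical stretch of a pair was 11 to 24 bases, far under the 100-base reads. The 24-base stretch of Mcm3 and Mcm7, printed to show its size, is tgcattgatgagtttgacaagatg.

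Of the factors that turn the helicase on, the GINS subunit Gins2 was the most abundant at 6.12 CPM per kb, followed by Gins1 at 1.17, Cdc45 at 0.5003 and Mcm10 at 0.0953. Gins2 stood at 26.3, 29.8, 21.9 and 24.3 CPM in G0 and 29.8, 23.3, 17.1 and 28.2 CPM in G1, at -0.06 ± 0.21 with runs split evenly in sign. Gins1 gave 2.54, 0.895, 1.27 and 2.14 CPM in G0 and 1.20, 1.46, 1.43 and 3.29 CPM in G1, and Cdc45 gave 0.272, 0.984, 3.11 and 3.57 CPM in G0 and 0.638, 1.23, 1.84 and 2.39 CPM in G1. Both genes overlapped between phases and changed sign between runs. Gins2 shares 2758 exon bases with Gse1 on the opposite strand, at 25.1 CPM against 27.3, with count ratios of 0.672 to 1.29 by library. How strand was used in counting is not given here, so reads of such pairs cannot be told apart.

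At the fork, the sliding clamp Pcna had the highest level of all members, at 33.7 CPM per kb, and Tipin, a fork protection factor, followed at 14.6. Pcna stood at 56.9, 57.4, 143 and 63.1 CPM in G0 and 57.3, 65.9, 129 and 73.2 CPM in G1. Its phases differed by 0.02 ± 0.35 (0.06 ± 0.12 with the block), and the run 3 libraries were the high ones. Tipin gave 30.6, 25.2, 22.0 and 23.8 CPM in G0 and 30.4, 28.2, 25.3 and 32.1 CPM in G1, overlapping, at 0.19 ± 0.18. Fen1, the flap endonuclease, was at 9.89, 8.77, 6.29 and 9.29 CPM in G0 and 8.86, 9.35, 11.9 and 17.9 CPM in G1, at 0.48 ± 0.29 (adjusted p = 0.9999; 0.449 with the block). Its G1 excess was in runs 3 and 4, and the antisense gene Gm10143, sharing 1909 exon bases, was at 11.4 CPM against 10.3. The remaining fork genes tested, Rfc2, Rfc5, Lig1, Pola1, Prim1 and Rpa2, had log2 fold changes from -0.12 (Pola1) to 0.27 (Lig1).

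Nucleotide supply held the member with the smallest p of the phase-alone fit, Tyms, which makes thymidylate. Tyms stood at 7.26, 6.17, 4.73 and 6.25 CPM in G0 and 7.93, 7.44, 9.90 and 11.7 CPM in G1, on average 6.11 ± 1.04 and 9.23 ± 1.93 CPM (SD, n = 4). Every G1 library was above every G0 library. The log2 fold change was 0.59 ± 0.27 in edgeR (unadjusted p = 0.0491, adjusted p = 0.9999), and 0.58 ± 0.24 with the block (adjusted p = 0.305). Rrm2, the regulated subunit of ribonucleotide reductase, gave 4.72, 4.29, 4.59 and 5.003 CPM in G0 and 4.61, 4.68, 8.17 and 10.9 CPM in G1. Only the G1 libraries of runs 3 and 4 lay above the G0 range by over 1 CPM, and the fold change was 0.60 ± 0.34 (adjusted p = 0.9999). Its partner Rrm1 was at 35.2, 31.7, 44.9 and 26.1 CPM in G0 and 27.8, 34.3, 38.5 and 36.8 CPM in G1, at -0.01 ± 0.20. Tk1 had 0.02 ± 0.28. Ung, the uracil glycosylase, was counted in this role although it does not make nucleotides, and had -0.08 ± 0.55.

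Chromatin and histone supply genes were led by Slbp, which binds the stem-loop of histone messengers, at 14.8 CPM per kb, and the histone chaperone Nasp at 11.6. Slbp stood at 82.4, 79.7, 133 and 63.8 CPM in G0 and 83.8, 84.5, 112 and 78.1 CPM in G1, and Nasp at 74.6, 54.8, 164 and 61.8 CPM in G0 and 70.6, 62.6, 144 and 67.8 CPM in G1. For both, run 3 was high in each phase and the fold change was near 0 (-0.002 ± 0.229 and -0.05 ± 0.38). Without the G0 library of run 3 these were 0.25 and 0.44 (adjusted p = 0.957 for both). Uhrf1, which guides maintenance DNA methylation, was at 4.08, 5.46, 5.02 and 6.43 CPM in G0 and 5.74, 6.06, 8.37 and 14.5 CPM in G1. G1 was higher in each run but the groups overlapped, at 0.72 ± 0.35 (adjusted p = 0.9999; 0.63 ± 0.25 with the block, adjusted p = 0.273). Chaf1a, of the chromatin assembly factor, gave 31.4, 29.3, 37.2 and 37.9 CPM in G0 and 30.0, 29.7, 53.7 and 49.5 CPM in G1, at 0.26 ± 0.23, and it shares 4648 exon bases with Ubxn6 on the opposite strand (37.3 against 40.5 CPM). Chaf1b, Hells and Atad2 had 0.36 ± 0.28, -0.02 ± 0.43 and 0.05 ± 0.32.

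In the repair and S-phase control group the deubiquitinase Usp1 was highest at 6.82 CPM per kb and Dtl, which targets Cdt1 for degradation, next at 1.007. Usp1 stood at 25.6, 26.0, 28.3 and 19.3 CPM in G0 and 23.4, 27.4, 29.1 and 24.4 CPM in G1, and Dtl at 16.4, 14.1, 9.26 and 14.1 CPM in G0 and 19.2, 15.9, 7.56 and 13.9 CPM in G1. Both overlapped between phases, at 0.07 ± 0.18 and 0.07 ± 0.30. Brip1, a helicase of crosslink repair, was at 0.907, 1.52, 2.05 and 2.68 CPM in G0 and 0.567, 0.920, 0 and 1.64 CPM in G1, lower in G1 in each run, at -1.21 ± 0.79 (adjusted p = 0.9999; 0.390 with the block). E2f8, a repressor E2F, gave 0.454, 2.68, 1.27 and 3.93 CPM in G0 and 2.06, 4.83, 0.408 and 7.47 CPM in G1, higher in 3 runs and lower in run 3, at 0.85 ± 0.80. Blm had -0.46 ± 0.88. Exo1, an exonuclease, held 0, 0, 4 and 20 counts in G0 and 0, 5, 0 and 12 in G1, most of them in the run 4 libraries.

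**Figure D3:**
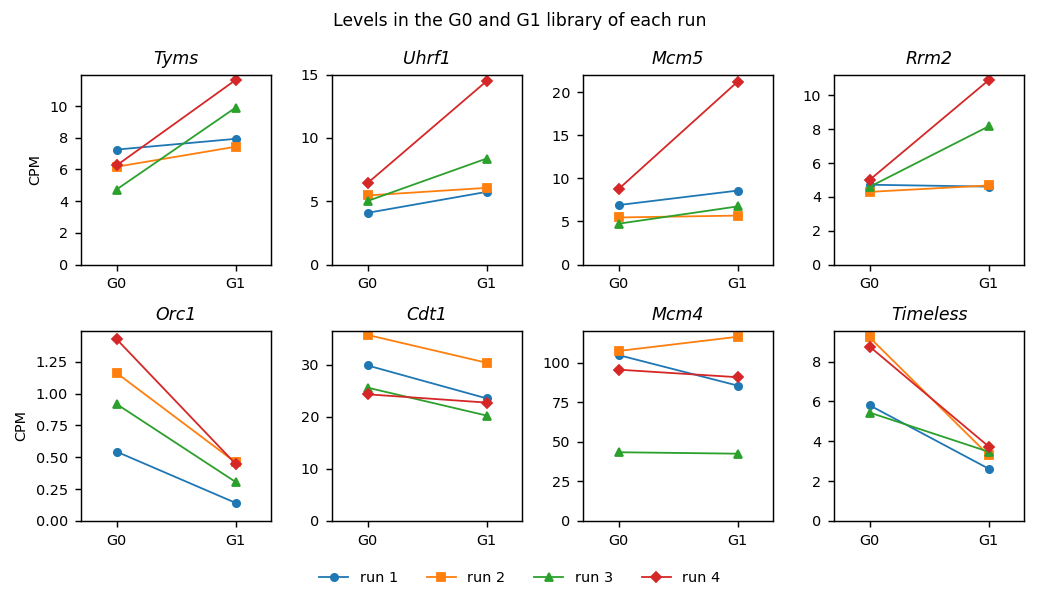
CPM in the G0 and G1 library of each run, joined by a line, for 7 members and Timeless, with a separate vertical axis from 0 for each gene. Tyms, Uhrf1 and Mcm5 slope up in all 4 runs, most in run 4 for Uhrf1 and Mcm5; Orc1, Cdt1 and Timeless slope down in all 4; Mcm4 is lowest in run 3 in both phases.

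Licensing genes were then set against nucleotide supply and fork genes. Over the 13 tested of 15 licensing genes the median log2 fold change was 0.12, and over the 14 tested of 16 supply and fork genes 0.05 (0.11 and 0.08 with the block), beside -0.001 over all tested genes. Within runs 1 to 4 the licensing medians over all 15 genes were -0.07, 0.14, -0.03 and 0.33, and the supply and fork medians over all 16 were -0.02, 0.10, 0.27 and 0.33. Over the tested genes alone the medians were 0.05, 0.14, -0.01 and 0.41 for licensing and -0.06, 0.09, 0.17 and 0.46 for supply and fork, so the order in runs 1 and 4 depended on the genes under the filter. No test was made of these medians. The difference between the medians of the tested genes was 0.07. It was -0.02 with no low-count filter and from -0.05 to 0.06 with any 1 library left out.

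Runs were then compared with each other. The test for any difference among the 4 runs, in the fit with run and phase, called 15 of 42 members (35.7%), against 35.6% of all tested genes, so the members were at the background. Run 3 was the lowest run for 7 of the 15 called members and the highest for 6. The same count was not made over all genes called, so it is not read as particular to the members. Without run 3, 3 members were called, Cdc45, E2f8 and Mcm5, and 14.6% of all tested genes.

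Values of run 3 are given by complex. Mcm2 stood at 11.8, 15.4, 1.98 and 12.9 CPM in G0 and 14.6, 12.5, 2.76 and 14.04 CPM in G1, so run 3 was at 0.175 times the mean of the other runs (adjusted p = 3.28e-06 among runs). Mcm4 was at 0.429 times (adjusted p = 5.41e-06) and Mcm5 at 0.609 times (adjusted p = 0.00563). For Mcm5, however, run 2 was the lowest, at a mean of 5.565 CPM against 5.737 in run 3, and run 4 the highest at 14.98. The test among runs called Mcm5 without run 3 but not without run 4. Mcm3, Mcm6 and Mcm7, at 0.716, 0.920 and 1.12 times, did not pass (adjusted p = 0.380, 0.576 and 0.864). Whether members of the complex differed from each other in run 3 was not tested. The ratio of Mcm4 to Mcm2 CPM was 7.21, 8.02, 18.1 and 6.93 in runs 1 to 4. Rfc2, of the clamp loader, gave 83.8, 91.4, 30.4 and 82.4 CPM in G0 and 78.6, 74.4, 38.8 and 96.05 CPM in G1, 0.410 times the other runs in run 3, and Rfc5 of the same complex was at 1.18 times (adjusted p = 0.540). In the other direction Nasp was 2.35 times, Pcna 2.19 times, Rpa2, a subunit of the single-strand binding protein, 2.08 times and Slbp 1.56 times the mean of the other runs. For Mcm2, Mcm4, Rfc2, Nasp, Pcna, Rpa2 and Slbp the run 3 library was the lowest, or the highest, of its group in both phases. For Mcm5 it was the lowest in G0 but not in G1. The G0 library of run 3 also had the highest fibroblast sum (883.8 CPM). The luminal progenitor sum, mostly Lcn2 and Krt8, was 4686 and 4944 CPM in the run 3 libraries against 3333 to 3981 in the other 6. The luminal hormone-sensing sum was highest in G0 of run 3, at 203.2 CPM. In G1 it was 102.1 CPM in run 3 and 112.0 in run 4. Its genes in run 3 ranged from 0.92 (Foxa1) and 0.99 (Esr1) to 9.11 (Cited1) and 11.1 (Areg) times the mean of the other runs. Their part in the run differences was not tested.

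**Figure D4:**
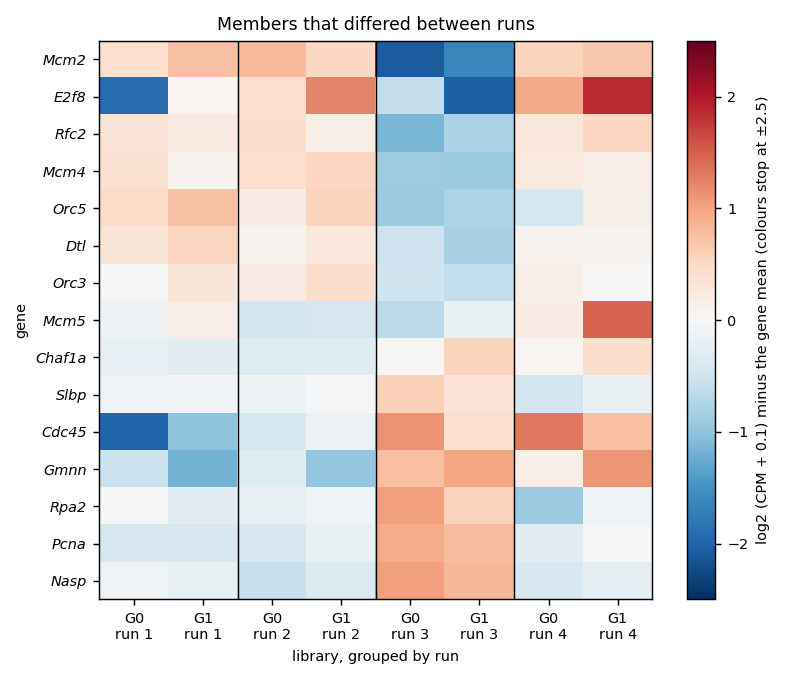
Colour map of the 15 members that differed between runs, as log2 (CPM + 0.1) minus the gene's mean over the 8 libraries, which are grouped by run. Both run 3 columns are blue from Mcm2 to Orc3 and red from Slbp to Nasp, whichever the phase.

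Proliferation genes give the level against which these values stand. Of 30 mitosis genes 17 could be tested and 0 were called with or without the block. Their median log2 fold change was 0.25 with the phase alone and 0.17 with the block. With the phase alone 12 of 17 were above 0, beside 29 of the 42 tested members and 7577 of all 15192 tested genes. For the proliferation marker Mki67 the means were 2.07 ± 1.39 CPM (G0) and 1.55 ± 0.88 CPM (G1; SD, n = 4). The spindle checkpoint kinase gene Bub1b gave 1.63, 1.97, 2.12 and 3.04 CPM in G0 and 2.13, 4.06, 3.27 and 7.17 CPM in G1, and Cdk1, the mitotic kinase, 0.0907, 0.0895, 1.91 and 2.68 CPM in G0 and 0.283, 0.997, 2.25 and 7.02 CPM in G1. Each was higher in G1 in all 4 runs with overlapping groups (adjusted p = 0.344 and 0.353 with the block). Top2a, topoisomerase II, gave 0.544, 0.268, 0.848 and 3.75 CPM in G0 and 0.8502, 3.45, 1.94 and 2.84 CPM in G1. The summed mitosis genes were highest in run 4, at 103.1 CPM in G0 and 123.8 in G1 against 43.93 to 71.88 in the other 6 libraries. The G1 library of run 4 was also the highest of the 8 for 16 of the 42 tested members (38.1%), against 1350 of all tested genes (8.89%), and these members included Mcm5, Uhrf1, Rrm2, Tyms and Fen1. The part of cells beyond G1 in this was not tested.

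Of 48 other replication genes, chosen for their role but with earlier results of these data known, 44 could be tested. With the phase alone 0 were called, and with the block 0 were called higher and 1 lower, Timeless, the fork protection partner of Tipin. Timeless stood at 5.81, 9.21, 5.44 and 8.76 CPM in G0 and 2.62, 3.30, 3.47 and 3.73 CPM in G1, with means of 7.30 ± 1.96 and 3.28 ± 0.475 CPM (SD, n = 4), and every G1 library was below every G0 library. The log2 fold change was -1.13 ± 0.28 with the block (adjusted p = 0.0442) and -1.15 ± 0.31 without it (adjusted p = 0.998). In the blocked fit the adjusted p was 0.0756, 0.248 and 0.196 without run 1, 2 or 4, and 0.00858 without run 3. The difference between Timeless and Tipin (0.19 ± 0.18) was not tested. Dut, which keeps uracil out of DNA by cleaving dUTP, was at 17.3, 12.3, 20.1 and 12.7 CPM in G0 and 22.2, 14.7, 33.6 and 22.1 CPM in G1, higher in each run (adjusted p = 0.140 with the block). Gins4 gave 12.2, 12.3, 10.4 and 11.1 CPM in G0 and 14.2, 13.1, 17.1 and 19.9 CPM in G1, without overlap, and did not pass (adjusted p = 0.318 with the block). The median over the 44 was 0.07, with 26 above 0.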

How the data were processed

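Polyadenylated RNA of sorted basal cells was sequenced as stranded paired-end libraries, per the labels. The authors deposited 1 table of raw counts per Ensembl gene. The submitters' processing notes name Trimmomatic 0.35, STAR 2.5.2a and the build mm10. Which program counted reads, how it used strand and with which gene annotation is not given in the sources used here. All columns matched a library (0 were left out). Symbols came from GENCODE M21 for 54808 of 54837 identifiers.

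Counts were filtered with filterByExpr, scaled by TMM and tested with edgeR 4.0.16 (quasi-likelihood, Benjamini-Hochberg adjustment, R 4.3.3) with the phase alone over 15192 genes. CPM was scaled on the counts of tested genes; CPM per kb divides by merged exon length. Alternatives were the run as a replicate block, RLE scaling, other filters, DESeq2 1.42.0, limma-voom (limma 3.58.1) and leaving out libraries or runs. The run number in the labels paired the libraries: correlations of deviations from the group means were 0.668, 0.470, 0.638 and 0.437 within runs and at most 0.0971 between them. The scripts were tested on simulated data. No pair of libraries in a group agreed within sampling noise.

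Values in every library are given for the 2 members of each role with the highest level per length, the 2 with the smallest p in the blocked fit, and the 3 smallest of the other replication and mitosis lists. Orc1, Mcm2, Rfc2, Cdc6, Exo1 and Mki67 were added after their values were seen, as were the minimum of 20 counts and the description of run 3. The members and lists were chosen with earlier results of these data known. Floors and intervals are not given, since libraries were compared by their spread.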

Additional observations from a re-analysis of the deposited data

Results flagged for a closer look

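Of 98 groups of 4 libraries (49 members, 2 phases), 9 held a library far from the other 3 by Dixon's test, which chance does in about 1 group in 20. In G0 of run 4, the library with counts on 39094 genes, Mcm10 was at 2.68 CPM (others 0.181 to 0.358), Clspn at 1.79 CPM (0 to 0.283) and Exo1 at 3.57 CPM (0 to 0.283). In G0 of run 3, Pcna was at 143.4 CPM (56.9 to 63.1), Rfc2 at 30.4 CPM (82.4 to 91.4) and Hells, a chromatin remodeler, at 2.83 CPM (1.965 to 1.996). In G1 of run 3, Nasp was at 143.5 CPM (62.6 to 70.6) and Rpa2 at 19.2 CPM (10.77 to 11.96). In G1 of run 4, Gins1 was at 3.29 CPM (1.20 to 1.46).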

How the results depend on the processing

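Members called were 0 under all 21 other settings, with a lowest adjusted p of 0.164, but 26 of the 42 tested members changed sign under at least 1 of them, the largest of these at 0.46 on the log2 scale. Over all genes, calls higher and lower were 14 and 73 with no low-count filter and 10 and 24 with DESeq2. With the replicate block they were 73 and 116, with the block and DESeq2 97 and 136, limma-voom 63 and 134, and RLE scaling 74 and 123. With the block and without run 1, 2, 3 or 4 they were 99 and 175, 63 and 90, 73 and 144, and 21 and 76; the cause was not tested. With 1 library left out, calls stayed at 0, and log2 fold changes ran from -0.33 to 0.37 for Rpa2, -0.41 to 0.44 for Nasp, -0.13 to 0.25 for Slbp and -2.56 to 2.28 for Exo1, unfiltered. Mcm3 was -0.26 with the block and without run 4. With 1 run left out, 2231 to 5379 genes and 3 to 14 members differed between runs, fewest without run 3. The 7 members under the filter are limited by depth: 3 counts were 0.212 to 0.536 CPM.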
